A study of Mus musculus with 45 samples.

Results

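The clustered protocadherins are cell-surface proteins of the cadherin superfamily, encoded in mouse by 3 tandem gene arrays named alpha, beta and gamma. All genes whose symbol begins with Pcdha, Pcdhb or Pcdhg were taken, which gave 58 of the 55401 genes counted, 14 in the alpha, 22 in the beta and 22 in the gamma array. All 58 Ensembl identifiers were found in the gene tables of each of the 4 experiments described here.

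These proteins are best known from neurons, where each cell displays a limited combination of isoforms and uses it to tell its own branches from those of other cells. In the alpha and gamma arrays each variable exon has its own promoter and is spliced to constant exons shared by the whole array, so the isoforms differ outside the cell and share much of the part inside it, whereas most beta genes are single exons. Promoter choice is known to involve CTCF and cohesin, which bring a promoter next to a distal enhancer, and repression of the arrays is known to involve DNA methylation, SMCHD1 and SETDB1. The C-type isoforms (Pcdhac1, Pcdhac2, Pcdhgc3, Pcdhgc4 and Pcdhgc5) lie at the downstream ends of the alpha and gamma arrays and are regulated apart from the other variable exons.

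The data are poly(A) RNA-seq of 45 libraries of mouse embryonic stem cells (mESCs) in 15 groups of 3, grown in serum and LIF on mitomycin-treated fibroblast feeders. In the EHMT2-dTAG-mcherry line (BL6/129 strain; clones E2-17, E2-20 and E2-K71) the histone methyltransferase EHMT2 carries a degron, and cells were given the degrader dTAG-13 or its solvent DMSO for 24 h or 7 d (time course), or for 15 d with a further arm, Recovery, that had 7 d of dTAG-13 and then 8 d in DMSO (washout). In the sorting experiment a line that also carries a MERVL-GFP reporter (3 replicates) had 72 h of DMSO or dTAG-13, and GFP-negative cells (here mESC) were sorted apart from GFP-positive ones, the 2-cell-like cells (2CLC). In the Dppa4 experiment 3 clones each of WTJ1 mESCs (WT) and of DPPA4KO mESCs, made with CRISPR/Cas9 (Dppa4 KO), were kept for 48 h in DMSO or in UNC0638, which blocks the enzymes EHMT1 and EHMT2. For the time course, the washout and the sorting experiment, 33 libraries in 11 groups, the values used are the authors' group means of normalised counts, so no difference in them carries an SD or a test. The 12 Dppa4 libraries were analysed one by one, and a difference there was called at a limma adjusted p under 0.05 and a log2 fold change of at least 1. Each group of that experiment was compared over its 3 clones.

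As checks on the libraries, the 12 Dppa4 libraries held 8399885 to 12710949 gene reads and correlated with others of their group at a median of 0.932 to 0.964. The Dppa4 transcript was at 0 in all 6 KO libraries. All 10 pluripotency markers were above 0 in each of the 4 sorted groups. With DMSO 4 of them were at least 2-fold lower in 2CLC than in mESC and 1 higher, against 9.84% and 17.4% of all genes. The 10 markers of 2-cell-like cells summed to 908 normalised counts in mESC DMSO against 178797 in 2CLC DMSO. Fibroblast feeder markers (12 genes) were present in the sorted groups too, at summed levels of 481 to 2166. In bulk RNA, more cells of a type and more RNA per cell cannot be told apart.

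The 3 arrays lie side by side on the plus strand of mouse chromosome 18 (GRCm38/mm10), alpha at 36930184 to 37187661, beta at 37264938 to 37524479 and gamma at 37661793 to 37841873. In GENCODE vM21, used here for exon structure, every alpha gene shares at least 2860 exon bases with other alpha genes and every gamma gene at least 2116 with other gamma genes, and a single base can belong to 14 alpha or 26 gamma-region genes. In the beta array only Pcdhb21 and Pcdhb22 share exon bases (455). A read on a shared exon does not say which promoter it came from, and how such reads were assigned is not given in the sources used here. The alpha values of the second WT UNC0638 library, given below, are those that a shared read counted in full for every gene would give. Antisense genes overlap exons of 4 alpha, 1 beta and 8 gamma genes, and the BC037039 transcript antisense to Pcdhgc3 had 1.76 to 3.82 normalised counts in the time course, 2.86 to 6.98 in the washout, 58.5 to 110 in the sorted groups and 47.1 to 165 in the Dppa4 libraries. Whether reads were counted by strand is not given for each experiment, so a gene and its antisense partner cannot be told apart here.

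The 3 arrays differed in level by orders of magnitude. In the DMSO 24 h group the normalised counts summed to 3.45 over the alpha genes, 16.6 over the beta genes and 1941 over the gamma genes. All 22 gamma genes had at least 10 normalised counts in all 11 group means, while 3 of 22 beta genes (Pcdhb7, Pcdhb17 and Pcdhb22) and 1 of 14 alpha genes (Pcdhac2) reached 10 in any of them. Relative to all gene counts, the gamma genes summed to 134 to 241 CPM in the group means and 133 to 239 in the Dppa4 libraries. Such a sum need not be the share of reads from an array, since a read on a shared exon may be counted for several genes. The lowest gamma gene alone had 56.0 normalised counts in DMSO 24 h, above the alpha sum and above the beta sum. At the level of single libraries, 5 beta genes (Pcdhb1, Pcdhb8, Pcdhb10, Pcdhb12 and Pcdhb13) had no read in any of the 12 Dppa4 libraries, while all 22 gamma genes had reads in every one of them. Most alpha genes sat at 0 in the time course, where 2 to 6 of 14 had any count.

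**Figure D1:**
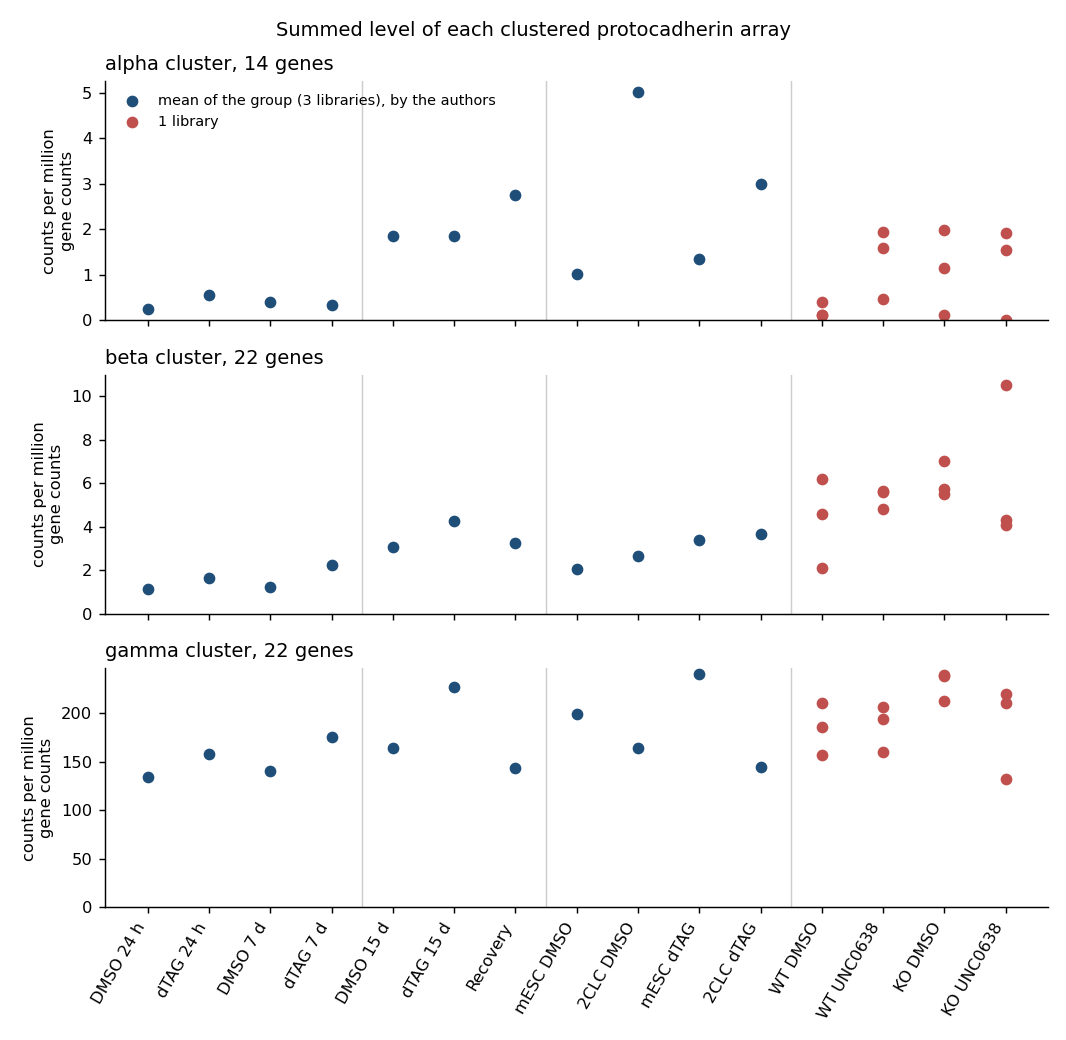
Summed level of the alpha, beta and gamma arrays in CPM of all gene counts (y axes, from 0) for the 11 group means of the time course, washout and sorting experiments (blue) and the 12 libraries of the Dppa4 experiment (red), with grey lines between experiments. The summed gamma genes sit between 133 and 241 in every group and library, while the alpha and beta sums stay below 11. A sum may count a read on a shared exon more than once.

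Within the gamma array most members had similar values. In the time course 20 to 21 of 22 members lay below 2 times the lowest member, which was Pcdhga6 or Pcdhgc4 at 56.0 to 81.1 normalised counts. Pcdhgc3, the C-type isoform nearest the variable array, stood apart at 393 in DMSO 24 h. Per kilobase of exon it had 71.5 normalised counts in that group, against 22.7 for Pcdhga11, the next gene, and a gamma median of 14.4. The same gene ranked highest per kilobase in 9 of the 11 group means, the exceptions being the 2CLC groups.

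After EHMT2 degradation every gamma gene was higher in dTAG-13 than in DMSO at 24 h, 7 d and 15 d, by small factors. The ratio of group means had a median of 1.23 at 24 h, 1.33 at 7 d and 1.31 at 15 d, where the medians over all genes with a mean of at least 10 in 1 of the groups were 1.00, 1.01 and 0.987. All 22 gamma genes were higher in each of the 3 comparisons, against 50.7%, 51.4% and 47.7% of all such genes. This unanimity rests on values that can hold reads of the shared exons. With the lowest gamma gene of the group taken off, a step chosen after seeing the data, 10 genes were higher and 5 lower at 24 h, 13 and 2 at 7 d, and 12 and 7 at 15 d, among those at least 10 above it in both groups. The value taken off was higher in dTAG-13 than in DMSO each time, at 68.9 and 56.0, 81.1 and 62.1, and 147 and 108. This moves the difference between the group means of every gene towards DMSO by construction, and nothing is read from these counts. A ratio can move either way, and the median ratio of these genes was 1.29 at 24 h, 1.40 at 7 d and 1.16 at 15 d. The gamma genes share exons, so their ratios are not separate observations, and a single set of 3 libraries lies behind each mean.

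At 24 h the gamma ratios ran from 1.04 for Pcdhgc3 (393 to 409 normalised counts) to 1.36 for Pcdhga11 (108 to 147). At 7 d they ran from 1.06 for Pcdhgb8, which GENCODE annotates as a polymorphic pseudogene, to 1.54 for Pcdhga1, the most upstream gene of the array, which had 99.4 in DMSO and 153 in dTAG-13. At 15 d the lowest ratio was 1.16 for Pcdhga8 and the highest 1.45 for Pcdhgc3, at 524 and 760. The C-type genes Pcdhgc4 and Pcdhgc5 followed the rest, with 63.1 and 81.1 for Pcdhgc4 and 81.5 and 101 for Pcdhgc5 in DMSO and dTAG-13 at 7 d. Pcdhgc4 was the lowest gamma gene or the next above it in every time course group. Reads of shared exons can be part of both values, so nothing particular to C-type isoforms is read from them. Between the DMSO groups alone, 7 d against 24 h, the gamma median ratio was 1.07 and 21 of 22 genes were higher at 7 d, against 50.2% of all genes. That difference between solvent controls is the only yardstick used here for how far gamma means move without dTAG-13. It is smaller than the dTAG-13 ratios but of the same sign.

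After washout the gamma array was back near the level of the DMSO cells. The Recovery to DMSO ratio had a median of 0.889, from 0.807 for Pcdhga12 to 1.06 for Pcdhga1, with 20 of 22 genes lower, against 51.8% of all genes, and only Pcdhga1 and Pcdhga2 higher. Scaled to the sum of gene counts, Pcdhga1 alone was higher. Counting all members with a value, 6 of 53 differed 2-fold between Recovery and DMSO, against 24.1% of all genes. Against the dTAG-13 group, Recovery was lower for 22 of 22 genes, with a median ratio of 0.685 and the lowest ratio at Pcdhgc3 (0.564), and 45.9% of all genes were lower. Pcdhgc3 had 524 in DMSO, 760 in dTAG-13 and 428 in Recovery, and Pcdhga1 had 184, 242 and 195. The dTAG-13 and Recovery groups were set against the same 3 DMSO libraries, so these ratios are not independent of each other.

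**Figure D2:**
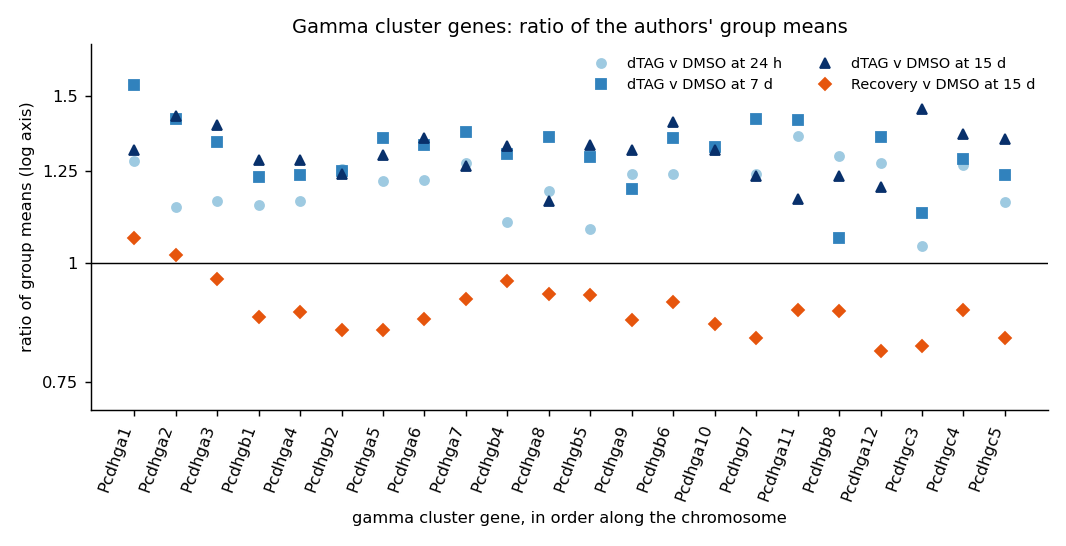
Ratio of the authors' group means (y axis, log scale) for the 22 gamma genes in order along the chromosome (x axis), for dTAG-13 against DMSO at 24 h, 7 d and 15 d (blue) and Recovery against DMSO at 15 d (orange). All blue symbols lie above 1, between 1.04 and 1.54, and all orange symbols but those of Pcdhga1 and Pcdhga2 lie below it.

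The sums of several marker lists moved alongside the gamma array. The summed feeder markers were 2120 and 2836 normalised counts in DMSO and dTAG-13 at 24 h, and 1905 and 3377 at 7 d. At 15 d they were 4588, 5626 and 1877 in DMSO, dTAG-13 and Recovery. Gene by gene, 8 of 10 feeder markers were at least 2-fold lower in Recovery than in DMSO, against 1.48% of all genes. With dTAG-13, 1 of 11 was at least 2-fold higher and 1 lower at 24 h, where 6.3% of all genes differed in either direction. At 7 d 3 of 10 were higher and 0 lower, and at 15 d 0 of 10 differed, against 10.6% and 6.77% in either direction. The 12 neural markers summed to 4641 and 6693 at 24 h, 5679 and 8382 at 7 d, and 13606, 17864 and 13695 at 15 d. The 2-cell-like markers summed to 196 and 2550 at 24 h, 325 and 7831 at 7 d, and 624, 15478 and 974 at 15 d. Their part in the gamma levels was not tested.

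The alpha and beta arrays were too low in the time course to follow gene by gene. Counting every member with a value above 0 in 1 of the groups, 13 of 43 members differed at least 2-fold at 24 h and 18 of 49 at 7 d, against 27.9% and 31.9% of all genes. None of those was a gamma gene, and none had a mean of 10 in either group and a 2-fold difference. At 24 h the beta genes past 2-fold went both ways. Pcdhb6, Pcdhb17, Pcdhb20 and Pcdhb22 were higher in dTAG-13, and Pcdhb4, Pcdhb5, Pcdhb14 and Pcdhb15 lower. At 7 d, 13 of 19 beta genes were at least 2-fold higher in dTAG-13 and 0 lower, where 17.4% of all genes were that much higher. Of these, Pcdhb1, Pcdhb4, Pcdhb5, Pcdhb7, Pcdhb8, Pcdhb11, Pcdhb12 and Pcdhb15 were at 0 in DMSO 7 d, where any count passes 2-fold. The beta sum was 17.8 in DMSO and 33.7 in dTAG-13 at 7 d. At 15 d 9 of 54 members differed 2-fold, against 28.8%, all of them among the 18 beta genes with counts, and these 9 were at least 2-fold higher in dTAG-13, against 19.4% of all genes, and the sums were 66.3, 87.9 and 70.96 in DMSO, dTAG-13 and Recovery.

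Pcdhb22, the most downstream beta gene and the highest of them in the time course, had 3.48 normalised counts in DMSO 24 h, 9.87 in dTAG-13 24 h, 8.25 in DMSO 7 d and 10.8 in dTAG-13 7 d. The DMSO groups thus differed from each other by about as much as dTAG-13 from DMSO at 24 h. In the washout experiment it had 25.3 in DMSO, 34.7 in dTAG-13 and 34.3 in Recovery. Pcdhb17 had 1.36 and 3.70 at 24 h, 1.93 and 5.31 at 7 d, and then 11.1, 7.97 and 5.07 in DMSO, dTAG-13 and Recovery at 15 d. It was higher in dTAG-13 at the earlier times and lower at 15 d, and it was the only member with a mean of at least 10 whose Recovery and DMSO means differed 2-fold, where 3.31% of all genes did so. Pcdhb18, the third beta gene by level, stayed between 1.48 and 2.84 in the time course.

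In the alpha array Pcdhac2 was the main contributor, with 2.66 and 6.15 at 24 h, 3.74 and 3.43 at 7 d, and 12.6, 14.2 and 19.0 in DMSO, dTAG-13 and Recovery at 15 d. The other C-type alpha gene, Pcdhac1, was at 0.00 in 3 of 4 time course groups and at 3.25 at most. Next to these stood Pcdha12, at 0.00 to 1.00 in the time course and 2.42 to 6.29 in the washout. Alpha sums were thus higher in the washout experiment (37.8 to 60.2) than in the time course (3.45 to 8.15), which were normalised separately. The Recovery mean of the alpha sum was the highest of the 3 washout groups, in contrast to the gamma sum, which was the lowest there at 3145.

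Between the DMSO groups, 7 d against 24 h, 16 of 45 members differed 2-fold, against 24.3% of all genes, and between Recovery and dTAG-13 12 of 54 did, against 30.5%. With a mean of at least 10 required in 1 group, 0 members differed 2-fold at 24 h, at 7 d, between the DMSO groups, at 15 d and between Recovery and dTAG-13, where 6.3%, 10.6%, 2.79%, 6.77% and 9.06% of all genes did. On the log2(mean + 1) scale a difference of at least 1 was reached by 2, 4, 3, 2 and 3 members in these comparisons and by 1 between Recovery and DMSO, against 8.78%, 12.2%, 5.07%, 9.21%, 10.8% and 5.15% of all genes.

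The change of the dTAG-13 effect between 24 h and 7 d was at least 2-fold for 5 of 32 members, against 20.3% of all genes. Among them the log2 ratio of ratios was -1.34 for Pcdhac2 and -1.12 for Pcdhb22, both low in counts, and no gamma gene was among the 5. With a mean of at least 10 required only Pcdhb22 was left (10.7% of all genes), and on the log2(mean + 1) scale 3 members (13.8%).

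In sorted cells the gamma array differed between mESC and 2CLC along its length. With DMSO, Pcdhga1 had 87.9 normalised counts in mESC and 255 in 2CLC, a ratio of 2.90, and Pcdhga2 had 70.2 and 148, a ratio of 2.11. Further downstream the sign turned, so that Pcdhga6 had 54.8 and 26.0, Pcdhga9 had 72.1 and 34.3, Pcdhga11 had 106 and 56.5, and Pcdhgc3 had 260 and 153. In all, 6 of 22 gamma genes were higher in 2CLC (Pcdhga1, Pcdhga2, Pcdhga3, Pcdhgb1, Pcdhga4 and Pcdhgb5), against 48.7% of all genes, and 16 were lower, against 51.3%. The median gamma ratio was 0.748, and that over all genes was 0.977. When each group was scaled to its own sum of gene counts, 3 genes were higher in 2CLC and 19 lower, at a median of 0.673.

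The same pattern was seen with dTAG-13 at smaller ratios. Pcdhga1 had 114 in mESC and 188 in 2CLC, and Pcdhga2 had 97.0 and 112. Only these 2 genes and Pcdhga8 were higher in 2CLC, against 47.4% of all genes, and Pcdhgb6 had the lowest ratio, 0.485, at 94.96 and 46.0. On the scale of gene counts Pcdhga1 alone was higher. Over the 19 A- and B-type genes, Spearman's rho between the log2 ratio of 2CLC to mESC and the position of the gene start was -0.57 with DMSO and -0.54 with dTAG-13 (Pearson's r -0.64 and -0.61), as a description of genes that share exons and libraries. Values of this size were also found elsewhere, with a rho of 0.65 between the DMSO groups at 7 d and 24 h and of -0.70 for UNC0638 against DMSO in Dppa4 KO cells, so a slope along the array was not particular to 2CLC.

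**Figure D3:**
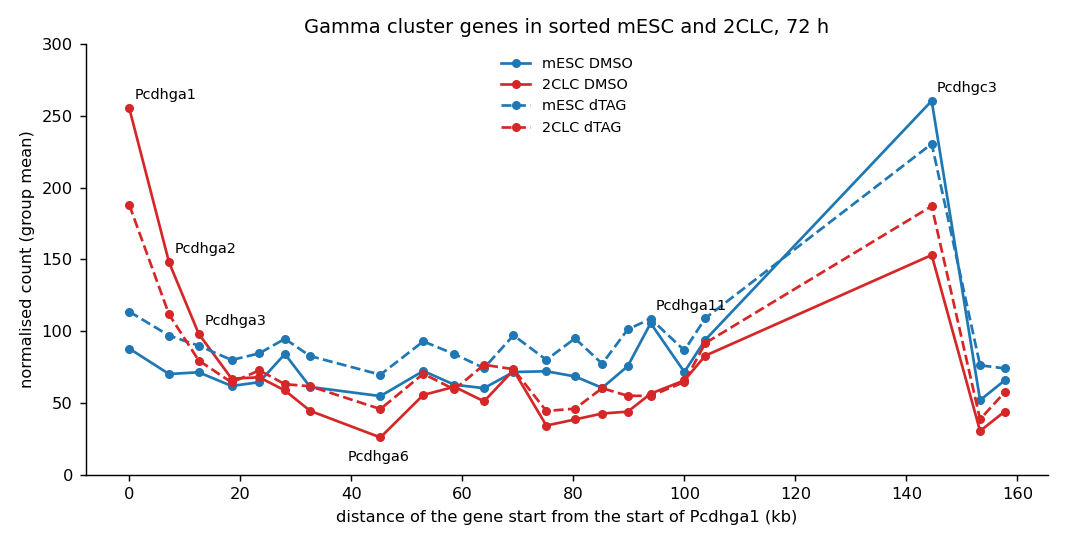
Group means of normalised counts (y axis, from 0) of the 22 gamma genes against the distance of each gene start from that of Pcdhga1 in kilobases (x axis), in sorted mESC (blue) and 2CLC (red) with DMSO (solid) or dTAG-13 (dashed). Both 2CLC lines start above the mESC lines at Pcdhga1 (255 and 188 against 87.9 and 114) and run below them at Pcdhga6 and Pcdhgc3.

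All gamma genes can hold reads of the shared exons, so the value of each gene above the lowest gamma gene of the same group was also computed, a step chosen after seeing the data. With DMSO the lowest gene was Pcdhgc4 at 51.9 in mESC and Pcdhga6 at 26.0 in 2CLC. The value taken off was thus that of another gene in each group and was smaller in 2CLC. This moves the difference between the group means of every gene towards 2CLC by construction. On this scale Pcdhga1 had 36.0 in mESC and 229 in 2CLC, Pcdhga2 had 18.2 and 122, and Pcdhgc3 had 208 and 127. Of the 15 genes at least 10 above the lowest in both groups 11 were higher in 2CLC and 4 lower, and nothing is read from these counts.

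Upstream of Pcdhga1, the long non-coding RNA gene 3222401L13Rik, on the same strand at 37655451 to 37661742, ends 51 bases before the gene start and had 42.9 normalised counts in mESC and 215 in 2CLC with DMSO, and 55.4 and 154 with dTAG-13. This neighbour is not a protocadherin and was looked at after the values of Pcdhga1 were seen. Its order across the 4 sorted groups was that of Pcdhga1, and in the time course it had 51.8 and 47.6 in DMSO and dTAG-13 at 24 h, and 40.9 and 66.7 at 7 d. The antisense gene Gm37118, which overlaps Pcdhga1, had 9.98 and 41.2 in mESC and 2CLC with DMSO, and 6.87 and 15.9 with dTAG-13. Whether transcripts that start outside Pcdhga1 contribute to its counts was not tested.

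Among the low genes, Pcdhac2 had 1.39 in mESC and 20.3 in 2CLC with DMSO, and 0.46 and 7.69 with dTAG-13. It was the only alpha gene to reach 10, and the alpha sum was 8.87 and 48.7 with DMSO and 11.6 and 34.4 with dTAG-13. With DMSO, 12 of 14 alpha genes were at least 2-fold higher in 2CLC, against 31.3% of all genes, and with dTAG-13 10 of 14, against 25.5%. Alpha genes share exons too, so these counts are not of separate observations. In mESC with dTAG-13 the lowest and the median alpha value were both 0.457. Pcdhb7 had 0.66, 1.96, 2.19 and 10.7 in mESC DMSO, 2CLC DMSO, mESC dTAG-13 and 2CLC dTAG-13, while Pcdhb22 had 5.50, 1.96, 9.24 and 7.55. In all, 32 of 55 members differed 2-fold between 2CLC and mESC with DMSO and 22 of 53 with dTAG-13, against 47.2% and 45.1% of all genes. With a mean of at least 10 required, 5 did with DMSO (Pcdhac2, Pcdhga1 and Pcdhga2 higher, Pcdhga6 and Pcdhga9 lower) and 2 with dTAG-13 (Pcdhb7 higher, Pcdhgb6 lower), against 27.2% and 24.5%. On the log2(mean + 1) scale a difference of at least 1 was reached by 17 and 12 members, against 26.7% and 25.0%. The feeder markers also moved here, at 481 and 1187 with DMSO and 999 and 2166 with dTAG-13, while the neural markers summed to 5468 and 5303, and 6565 and 8492. Their part was not tested.

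Degradation of EHMT2 within the sorted populations gave gamma ratios like those of the time course in mESC and a mixed picture in 2CLC. In sorted mESC 21 of 22 gamma genes were higher with dTAG-13, against 51.0% of all genes, at a median ratio of 1.28, and Pcdhgc3 was the exception at 260 and 230. In 2CLC 15 were higher, against 50.9%, and 7 lower, at a median of 1.15 that became 0.972 with 11 higher and 11 lower when scaled to gene counts. With the lowest gamma gene taken off, 9 genes were higher and 6 lower in mESC, and 6 higher and 12 lower in 2CLC. The value taken off was higher with dTAG-13 than with DMSO, at 69.7 and 51.9 in mESC and 38.7 and 26.0 in 2CLC. This moves the difference between the group means of every gene towards DMSO by construction, and nothing is read from these counts. The ratios in 2CLC ran from 0.736 for Pcdhga1 to 1.76 for Pcdhga6. Counting all members above 0, 19 of 53 differed 2-fold in mESC and 20 of 53 in 2CLC, against 34.4% and 35.1% of all genes, and with a mean of at least 10 required 0 did in mESC and 2 in 2CLC (Pcdhb7 higher and Pcdhac2 lower), against 9.12% and 9.81% of all genes. On the log2(mean + 1) scale a difference of at least 1 was reached by 1 member in mESC (12.5% of all genes) and 9 in 2CLC (15.1%). Between the populations the dTAG-13 effect differed at least 2-fold for 13 of 44 members, against 22.3%, none of them a gamma gene. Feeder markers moved with dTAG-13 here, 8 of 10 being at least 2-fold higher in mESC and 8 of 10 in 2CLC, against 6.22% and 6.29% of all genes, and so did 10 of 10 markers of 2-cell-like cells in mESC (908 to 12122 in sum). Their part in the protocadherin values was not tested. For the difference of effects, with a mean of at least 10 required 0 members passed (12.4% of all genes), and on the log2(mean + 1) scale 7 (15.5%).

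In the Dppa4 experiment 25 of 58 members passed the filter on low counts, all 22 gamma genes with Pcdhb14, Pcdhb17 and Pcdhb22, and none of the alpha genes. With limma, 0 of these 25 were called in any contrast. The share of all 17258 tested genes called was 0.0% for UNC0638 against DMSO in WT, 0.464% for the same in KO, 4.43% for KO against WT with DMSO, 3.29% for KO against WT with UNC0638 and 0.0% for the difference between the UNC0638 effects. At an unadjusted limma p under 0.05 there were 0, 3, 2, 2 and 0 members, against 8.71%, 15.4%, 24.1%, 20.0% and 6.23% of all genes. On the read counts recovered from the normalised values, edgeR called 0, 0, 0, 1 and 0 members, against 0.0%, 0.214%, 3.82%, 3.33% and 0.0% of all genes, and DESeq2 0, 1, 0, 1 and 0, against 0.0811%, 1.65%, 6.23%, 5.03% and 0.0%, and the member called was Pcdhb17 each time. With a pseudocount of 0.5 limma called 0, 0, 1, 0 and 0 members, the one being Pcdhb14, against 0.0%, 0.458%, 4.35%, 3.06% and 0.0% of all genes.

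In WT cells no change of the gamma array with UNC0638 passed the test. The gamma sums were 2190, 1919 and 1733 with DMSO (1947 ± 230, SD, n = 3) and 1956, 1883 and 1618 with UNC0638 (1819 ± 178, SD, n = 3), so the groups overlapped, while within each of the 3 same-numbered pairs the UNC0638 library was the lower. The ratio of the sums was 0.934, and 1.01 in CPM of all gene counts, which turned its direction. The log2 fold changes were negative for 18 of 22 genes, at a median of -0.10 against 0.00 over all genes, with standard errors of 0.24 to 0.31 and a lowest adjusted p of 0.697. Without the third UNC0638 library the signs were 11 and 11. For Pcdhgb1, Pcdhga6 and Pcdhgc4, 3 of 25 tested members, every UNC0638 library lay below every DMSO library, against 10.0% of all genes.

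In KO cells UNC0638 went with lower gamma values in every gene, none of which passed the test. The gamma sums were 2456, 2584 and 2180 with DMSO (2407 ± 206, SD, n = 3) and 2117, 2062 and 1474 with UNC0638 (1884 ± 357, SD, n = 3), so each UNC0638 library lay below each DMSO library. In CPM of all gene counts the groups overlapped, at 238, 239 and 212 with DMSO and 220, 210 and 133 with UNC0638. The log2 fold changes ran from -0.62 to -0.06 with a median of -0.35, 22 of 22 negative, and the lowest adjusted p was 0.304. Without the third UNC0638 library, which was the lowest, the median was -0.25 and 20 genes were negative. For 7 of 25 members, all gamma genes, the groups did not overlap, against 8.03% of all genes. Gamma genes share exons and libraries, so such counts of them, in this and the other contrasts, are not of separate observations.

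Pcdhgc3 had the largest of these fold changes, at -0.62 (SE 0.28, adjusted p = 0.304, limma). Its normalised counts were 386, 362 and 363 in KO DMSO (370 ± 13.3, SD, n = 3) and 294, 353 and 134 in KO UNC0638 (260 ± 113, SD, n = 3), against 330, 326 and 245 in WT DMSO and 300, 343 and 255 in WT UNC0638. One library thus stood far below the others, and without it the log2 fold change was -0.20. Pcdhga1 differed least between the 4 groups, with means of 108, 95.9, 110 and 96.1 in WT DMSO, WT UNC0638, KO DMSO and KO UNC0638 and SDs of 2.24 to 17.1.

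Comparing genotypes with DMSO, all 22 gamma genes had a positive log2 fold change in KO, from 0.02 to 0.73 with a median of 0.27, where the median over all genes was -0.03. The lowest adjusted p was 0.129, for Pcdhgb8, whose normalised counts were 104, 65.2 and 77.8 in WT (82.2 ± 19.6, SD, n = 3) and 120, 146 and 138 in KO (135 ± 13.01, SD, n = 3), a log2 fold change of 0.73 with SE 0.28. Its genotypes did not overlap with DMSO, but with UNC0638 they did, at 98.6, 75.7 and 80.6 in WT and 101, 118 and 64.6 in KO. In all, 7 of 25 members were higher in every KO than in every WT library with DMSO (Pcdhb14, Pcdhga4, Pcdhga6, Pcdhgb4, Pcdhga9, Pcdhgb8 and Pcdhgc3), against 13.5% of all genes, and 0 were lower, against 16.1%. The gamma genes among the 7 share exons and are not separate observations. With UNC0638, Pcdhb14 was higher and Pcdhb17 lower in every KO library (1 of 25 each), against 11.6% and 12.6%. The number of positive gamma genes fell to 19 at the lowest when a library was left out. With UNC0638 13 gamma genes were positive and 9 negative, at a median of 0.09 and a lowest adjusted p of 0.576.

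The test of whether UNC0638 acted differently in the genotypes gave a negative difference for 20 of 22 gamma genes, at a median of -0.22 and a lowest adjusted p of 0.779. So the signs with UNC0638 in WT and in KO were not shown to differ. Feeder markers were lower in KO, at summed levels of 1627 to 2088 in KO DMSO against 3109 to 4891 in WT DMSO and of 1896 to 2438 in KO UNC0638 against 2997 to 4096 in WT UNC0638. Markers of 2-cell-like cells summed to 137 to 2056 in WT DMSO, 1080 to 8432 in WT UNC0638 and 3.49 at most in KO. These lists went the opposite way to the gamma genes with DMSO, and their part was not tested.

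**Figure D4:**
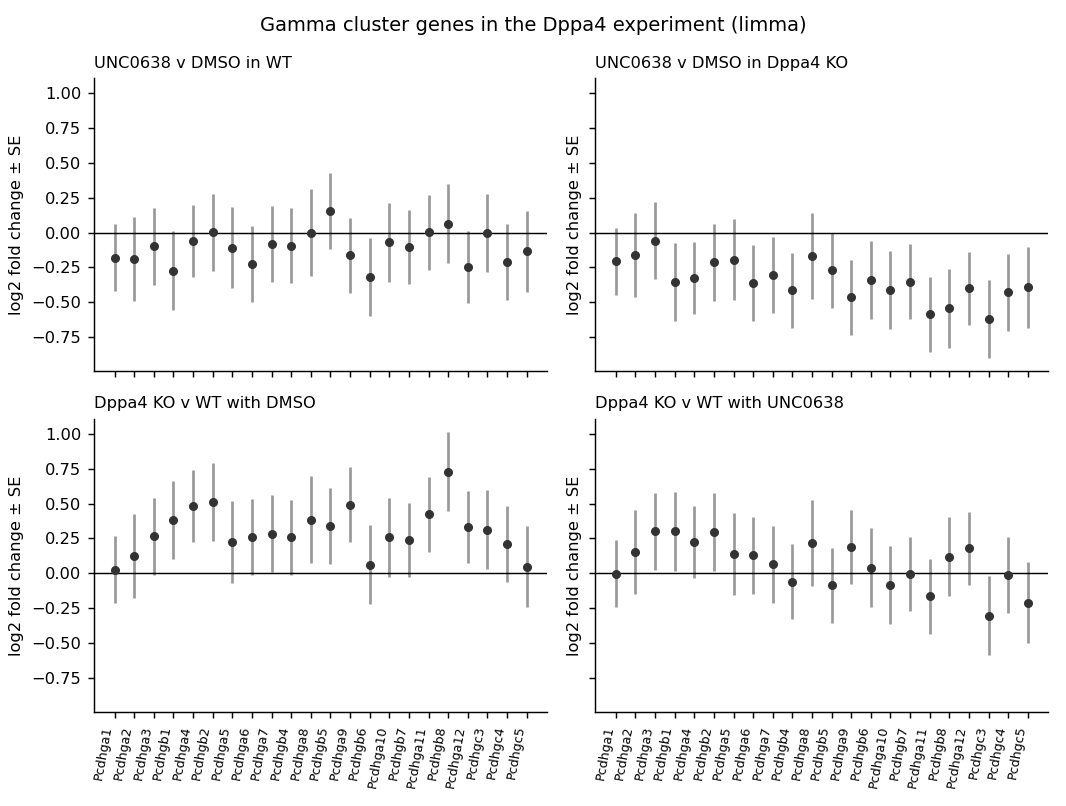
Log2 fold change (y axes) with its standard error for the 22 gamma genes in order along the chromosome (x axis), for UNC0638 against DMSO in WT and in Dppa4 KO cells (top) and for KO against WT with DMSO and with UNC0638 (bottom), n = 3 libraries a group. With UNC0638 in KO all 22 genes lie below 0 and in KO against WT with DMSO all lie above it, while no single gene passed the test.

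Of the beta genes, Pcdhb14 and Pcdhb17 came closest to the threshold. Pcdhb14, named after its values were seen, had normalised counts of 0.00, 0.00 and 2.62 in WT DMSO, 3.52, 3.74 and 1.60 in WT UNC0638, 7.83, 11.2 and 11.6 in KO DMSO and 5.52, 31.2 and 12.2 in KO UNC0638. Every KO library was above every WT library. With DMSO its limma log2 fold change in KO was 2.85 (SE 0.85, adjusted p = 0.0534, range 0.0426 to 0.150 over the alternatives that kept the libraries of other groups), and with UNC0638 it was 1.88 (adjusted p = 0.224). In reads it had 29 in KO DMSO against 3 in WT DMSO, a ratio of 9.50 after scaling with an exact 95% interval of 2.95 to 48.7 for counting error only.

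Pcdhb17 showed the reverse order. The WT libraries had 17.5, 19.7 and 15.7 with DMSO (17.6 ± 1.98, SD, n = 3) and 17.6, 10.3 and 16.8 with UNC0638, and the KO libraries had 0.00, 16.3 and 19.7 with DMSO and 0.00, 1.08 and 0.87 with UNC0638. The KO DMSO group thus held 1 library at 0 and 2 at the level of WT. With UNC0638 its log2 fold change in KO against WT was -3.30 (SE 0.95, limma adjusted p = 0.0584, range 0.0131 to 0.158 over the same kind of alternatives), from 2 reads against 52, a ratio of 0.0421 with an exact 95% interval of 0.00496 to 0.160. For UNC0638 against DMSO in KO it was -2.18 (limma adjusted p = 0.284). The difference of the UNC0638 effects between genotypes was -1.92 (limma adjusted p = 0.788). Pcdhb22 overlapped between all groups, at 4.65, 27.1 and 23.6 in WT DMSO and 3.48 to 36.6 in the other groups.

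Pcdhac2 failed the filter, and all its values were low. It had 0.00, 0.00 and 0.87 in WT DMSO, 3.52, 5.61 and 6.39 in WT UNC0638, 0.00 in all 3 KO DMSO libraries and 1.84, 0.00 and 0.00 in KO UNC0638. All WT UNC0638 libraries were above all other libraries. In reads it had 18 against 1 in WT UNC0638 and WT DMSO, a ratio of 14.7 with an exact 95% interval of 2.31 to 611. In a fit without the filter the log2 fold change with UNC0638 in WT was 2.29 (limma adjusted p = 0.240), and KO against WT with UNC0638 gave -2.09 (limma adjusted p = 0.0510). Among the other alpha genes Pcdha12 had 0, 1 and 1 reads in WT DMSO, 1 in each WT UNC0638 library, 6, 13 and 0 in KO DMSO and 4, 5 and 0 in KO UNC0638. Pcdha3 had 8 reads in 1 KO UNC0638 library and Pcdha1 had 4 and 9 in a pair of them. In KO these reads were thus missing from at least 1 library of each group, and in the second WT UNC0638 library 12 of 14 alpha genes had exactly 1 read each. The others, Pcdhac1 and Pcdhac2, had more. A shared-exon read counted in full for every alpha gene would give such values, and whether reads were counted that way was not tested.

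**Figure D5:**
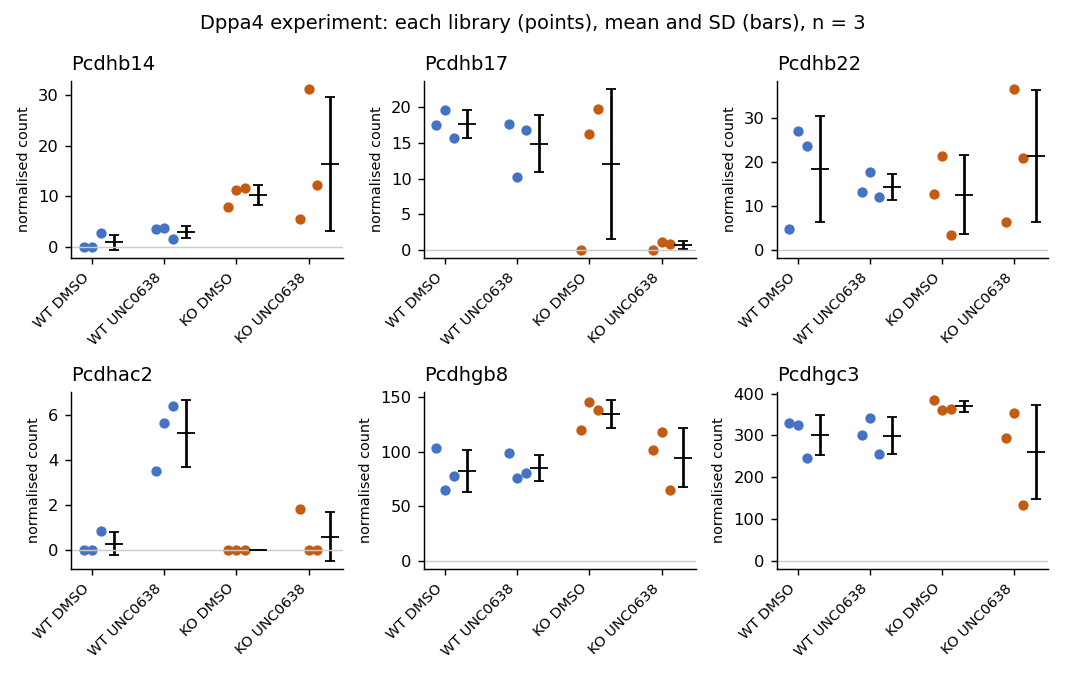
Normalised counts (y axes) of 6 clustered protocadherins in each library of the Dppa4 experiment (points, 3 a group), with the group mean and SD as black bars, WT in blue and Dppa4 KO in orange. Pcdhb14 is higher in all KO libraries, Pcdhb17 is near 0 in all 3 KO UNC0638 libraries and in 1 KO DMSO library, and Pcdhgc3 has 1 low library, at 134, in KO UNC0638.

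Other genes of the same family and of the known control of the arrays were described from fixed lists. Of 12 non-clustered protocadherins, which lie outside the arrays and have no variable exons of this kind, 8 had a mean of at least 10 in sorted cells with DMSO. Of these 6 were at least 2-fold higher in 2CLC and 1 lower, against 17.4% and 9.84% of all genes. Pcdh8 had 3.67 in mESC and 160 in 2CLC, Pcdh17 had 2.44 and 47.3, Pcdh19 had 27.97 and 104, and Pcdh1 had 183 and 24.9. At least 2-fold higher with dTAG-13 were 0 of 6 at 24 h, 2 of 5 at 7 d (Pcdh7 and Pcdh18), 2 of 7 at 15 d (Pcdh8 and Pcdh17), 3 of 6 in sorted mESC and 2 of 8 in sorted 2CLC, against 3.87%, 5.66%, 5.77%, 6.22% and 6.29% of all genes. In Recovery against dTAG-13 5 of 7 were lower, against 7.35%. In the Dppa4 experiment limma called 0 of the 5 tested in each contrast.

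None of the 11 genes for CTCF, cohesin and its loaders differed 2-fold in any comparison or was called with limma. Of 11 genes of repressors of the arrays, the DNA methyltransferase gene Dnmt3a was the only one at least 2-fold higher at 24 h, at 853 in DMSO and 1733 in dTAG-13, against 3.87% of all genes. Dnmt3b alone was 2-fold higher in DMSO at 7 d than at 24 h, at 1203 and 562, against 1.1% of all genes. It alone was called in the Dppa4 experiment and fell in KO against WT, by 1.09 on the log2 scale with DMSO (limma adjusted p = 0.0287) and by 1.22 with UNC0638 (limma adjusted p = 0.0215). Smchd1 and Setdb1 were not among those past a threshold in any comparison. Of 10 classical cadherins, 1 of 5 with a mean of at least 10 was 2-fold higher at 24 h, Cdh2 (N-cadherin), at 17.2 in DMSO and 60.4 in dTAG-13. At 7 d 3 of 6 were (Cdh2, Cdh5 and Cdh11) and at 15 d 2 of 9 (Cdh5 and Cdh6), against 3.87%, 5.66% and 5.77% of all genes. In 2CLC with DMSO Cdh3 (P-cadherin) and Cdh11 were higher (2 of 5), against 17.4%. With limma 2 of 7 were called in KO against WT with DMSO and 1 of 7 with UNC0638, against 4.43% and 3.29%. Cdh2 fell by 1.79 on the log2 scale with DMSO (limma adjusted p = 0.0164). Cdh3 fell by 1.41 both with DMSO (limma adjusted p = 0.00822) and with UNC0638 (limma adjusted p = 0.0103).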

How the data were processed

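Poly(A) RNA of 45 mouse libraries was sequenced. The authors trimmed reads with Trim Galore 0.6.7, aligned them with STAR 2.7.10 with introns off, placing a read with many matches at 1 of them at random, counted them over GENCODE vM25 genes with TEcounts on GRCm38/mm10, and deposited counts divided by DESeq2 1.34.0 size factors (a signal per gene, normalised count, R 4.1.0). For 33 libraries the authors' files used here hold group means, and columns of fold changes and p-values in them were left unused. For the 12 Dppa4 libraries whole reads were recovered for all genes (1 read worth 0.798 to 1.23 normalised counts). Because group means carry no spread, they were compared as ratios, and a planned test on them was not run.

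In the Dppa4 experiment, log2(normalised count + 1) of 17258 genes that passed edgeR's filterByExpr was tested with limma 3.58.1 (trend, Benjamini-Hochberg over all genes tested) in R 4.3.3. Fold changes on this scale understate those of low genes. edgeR 4.0.16 and DESeq2 1.42.0 on the recovered reads, a pseudocount of 0.5, TMM scaling, no filter, each library left out and the replicate number as a block were alternatives, and tests were first run on simulated data. Labelled numbers paired the WT DMSO and WT UNC0638 libraries by their deviations from the group means (correlations 0.246, 0.103 and 0.431). Python 3.11.15, pandas 2.3.3, numpy 2.4.6 and matplotlib 3.10.9 were used for the rest. Exon structure came from GENCODE vM21.

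The members, gene lists and tests were chosen with earlier results of these data known. Genes were named by a rule: the C-type isoforms, the 3 members of each array with the highest time course mean, the 3 of each array with the largest fold in a comparison (called, or with a mean of at least 10 where there was no test), and any called in 2 comparisons. Counting intervals cover counting error only.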

Additional observations from a re-analysis of the deposited data

How the results depend on the processing

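Among the 25 tested clustered protocadherins, limma called 0 in every Dppa4 contrast, and these counts moved to 1 under a few alternatives. For UNC0638 against DMSO in KO, DESeq2 called 1 (Pcdhb17, log2 fold change -4.23, adjusted p = 0.0467). For KO against WT with DMSO, a pseudocount of 0.5 called 1 (Pcdhb14, 3.52, limma adjusted p = 0.0483), the fit with the replicate block 1 (limma adjusted p = 0.0450), and leaving out each library gave 0 to 1, the 1 being Pcdhb14 without WT DMSO replicate 3 (limma adjusted p = 0.0426). Libraries outside a contrast enter its spread: without KO UNC0638 replicate 1, 2 or 3 the adjusted p of Pcdhb14 with DMSO was 0.0416, 0.0475 and 0.0463, and without KO DMSO replicate 1 that of Pcdhb17 with UNC0638 was 0.00801 (limma). For KO against WT with UNC0638, edgeR called 1 (Pcdhb17, -4.31, adjusted p = 0.0498), DESeq2 1 (-4.57, adjusted p = 0.0131) and the replicate block 1 (limma adjusted p = 0.0403). The replicate block called 0 in WT, in KO and for the difference. The same-numbered libraries did not deviate together in all pairs (median correlation 0.08, over 0.1 in 7 of 18, WT pairs included). So the numbers were read as pairs only in describing the WT gamma sums. The main limma fit, which gave the WT standard errors and adjusted p, did not pair them, and no fit paired WT alone. Of 999 alternatives for 77 results of named tested members, 922 kept side and sign, 7 passed the threshold, 70 changed sign while not called and 0 reversed. Counts of 2-fold members (13, 18, 16, 9, 6, 12, 32, 22, 19 and 20) became 0, 0, 0, 0, 1, 0, 5, 2, 0 and 2 with a mean of at least 10 required, and 2, 4, 3, 2, 1, 3, 17, 12, 1 and 9 on the log2(mean + 1) scale, in the order 24 h, 7 d, DMSO 7 d against 24 h, 15 d, Recovery against DMSO, Recovery against dTAG-13, 2CLC against mESC with DMSO and with dTAG-13, and dTAG-13 against DMSO in mESC and in 2CLC. For the differences of effects 5 and 13 became 1 and 0, and 3 and 7. The summed gamma ratio of dTAG-13 to DMSO in sorted 2CLC was 1.04 and became 0.881 in CPM of all gene counts, turning its direction, as did that of UNC0638 to DMSO in WT (0.934 and 1.01). The values above the lowest gamma gene, the signs per setting, the CPM scaling and the counting intervals were chosen after seeing the data.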
